A study of Mus musculus with 6 samples.

Results

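The genes described here are 9 regulators and surface markers that mammary gland research associates with stem cells, namely Procr, Tspan8, Bcl11b, Sox9, Sox10, Nfib, Tbx3, Inpp5d and Gng11. They were taken by name from a list of stem cell associated genes, leaving out Wnt, ID, epithelial-mesenchymal transition and Polycomb genes, and all 9 of 9 were measured among the 22180 genes of the array. The samples were basal cells freshly sorted from mouse mammary epithelium, profiled on 6 whole-transcript expression arrays. Of these, 3 came from mice labelled Trp53-/-, p16ink4a-/- and p19arf-/- (called knockout, or KO, below), 3 came from wild type mice (WT), and every animal was a virgin female of 8 to 14 weeks. The knockout mice are thus labelled as lacking p53 and both proteins made from Cdkn2a. Blood and endothelial cells were depleted with beads before basal cells were sorted by flow cytometry. The strain, the kind of allele and the number of animals behind each biological replicate are not given in full in the sources used here. A p-value therefore sets a difference against the spread between samples, which need not be the spread between single animals.

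The mammary epithelium has an inner luminal layer, which makes milk and senses hormones, and an outer basal layer of contractile myoepithelial cells. Basal cells of the mouse can rebuild a gland when transplanted, and surface proteins and transcription factors have been used to mark or perturb the cells that do so. The tumour suppressor p53 and the Cdkn2a products p16Ink4a and p19Arf restrain proliferation and self-renewal in many tissues.

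Levels (and differences between genotypes, knockout minus wild type, also given with their standard error, SE) are log2 values in which the arrays had already been normalized to each other, so a difference of 1 is a doubling of signal. Arrays have no read depth, so precision is limited by their number. Levels are compared between genotypes within a gene, since probe sets of different genes differ in brightness for the same amount of RNA. A gene was called when its limma p-value, adjusted over all 22180 genes by the Benjamini-Hochberg method, was under 0.05.

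Cdkn2a, 1 of the targeted genes, read 6.25, 6.31 and 6.39 on the knockout arrays and 6.42, 5.84 and 6.48 on the wild type arrays, and where its probes lie relative to the deleted part is not given in the sources used here, so it does not check the labels. Trp53 was not analysed here.

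None of the 9 genes differed between knockout and wild type basal cells beyond that threshold. Gng11, a G protein gamma subunit, stood furthest apart, at 1.40 times the wild type signal in the knockout. Sox9, a transcription factor, was at 0.893 times, and the remaining 7 genes had groups that overlapped. Of the 9 genes 5 had a higher mean and 4 a lower mean in the knockout, and their median log2 fold change was 0.013, or -0.0091 with arrays centred on their medians. Over all genes 48.3% had a higher mean, and the median was -0.0067. The median size of the difference, regardless of sign, was 0.11 for the 9 genes and 0.11 for all genes. In this comparison limma called 0 of 9 genes and 0% of all genes (0 of 22180), and the smallest adjusted p of any gene was 0.818.

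At an unadjusted p under 0.05 there was 1 of the 9 genes, Gng11, against 3.32% of all genes (736 of 22180, 1.61% higher and 1.71% lower). With the replicate number as a block it was again Gng11 alone of the 9, against 5.01% of all genes (1112), and without WT replicate 1 there were 1788 genes in all. Knockout and wild type arrays did not overlap for 2 of the 9 genes, Gng11 above and Sox9 below, which is 22.2% of a set in which each gene makes up 11.1%. Over all genes 7.68% did not overlap, 3.63% with the knockout above and 4.05% with it below. An exact two-sided permutation test of 3 arrays against 3 gave 0.1 for Gng11 and for Sox9, the smallest p this design allows. Every gene whose groups do not overlap gets this p by construction, so it only repeats the lack of overlap. The median of the 9 genes turned to -0.044 without KO replicate 1 and to -0.12 without WT replicate 3, and it was 0.030 without KO replicate 2 and 0.073 without WT replicate 1.

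**Figure D1:**
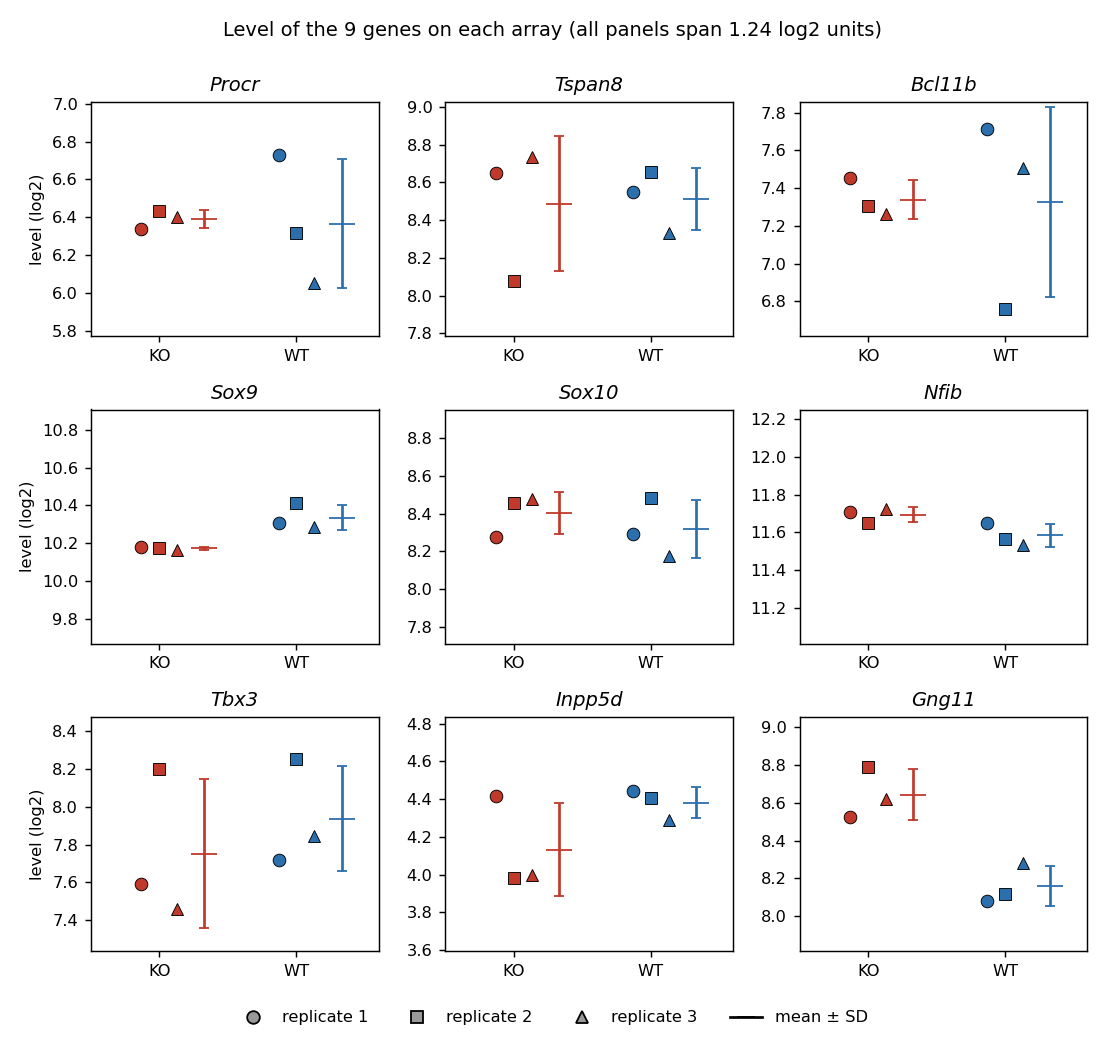
Level of each of the 9 genes on the log2 scale (y axis, every panel the same span), with knockout (KO) left of wild type (WT), 1 symbol per array and the mean ± SD beside them (n = 3 arrays per genotype). The groups are apart for Gng11 (KO above WT) and for Sox9 (KO below WT), and overlap in the other 7 panels.

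Among the surface proteins, Procr encodes the endothelial protein C receptor, which has been used to mark a Wnt-responsive population of mouse mammary stem cells. It read 6.34, 6.43 and 6.40 on the knockout arrays and 6.73, 6.32 and 6.05 on the wild type arrays. The knockout arrays lay close together, inside the range of the wild type arrays. The means were 6.39 ± 0.048 in knockout and 6.37 ± 0.341 in wild type cells (SD, n = 3 each), a log2 fold change of 0.026 (SE 0.193, limma adjusted p = 1.0). Its 95% interval ran from -0.41 to 0.46, so ratios of knockout to wild type between 0.752 and 1.38 all lay inside it. Without WT replicate 3, the lowest array, the sign turned to -0.13, and without WT replicate 1, the highest, the value was 0.21. It was 0.052 without KO replicate 1 and nearest 0 without KO replicate 2 (0.0044) or WT replicate 2 (0.00086).

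Tspan8 encodes a tetraspanin, a membrane-spanning protein that organises receptors at the cell surface, and has been used to divide mouse mammary basal cells into subsets. It read 8.65, 8.08 and 8.74 on the knockout arrays and 8.55, 8.65 and 8.33 on the wild type arrays. KO replicate 2 was the lowest of all 6 arrays and KO replicate 3 the highest, so the wild type arrays fell between knockout arrays. Its genotype difference was -0.025 (SE 0.211), with a 95% interval of -0.50 to 0.45 (limma adjusted p = 1.0). The sign turned to 0.18 without KO replicate 2 and to 0.046 without WT replicate 2, and the value was -0.11 without KO replicate 1, -0.15 without KO replicate 3, -0.0062 without WT replicate 1 and -0.12 without WT replicate 3.

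Of the transcription factors, Bcl11b encodes a zinc finger protein that is best known for commitment to the T cell lineage, and studied in the quiescence of mammary stem cells. Its levels were 7.45, 7.30 and 7.26 in the knockout and 7.71, 6.76 and 7.51 in the wild type. WT replicate 2 was the lowest array and WT replicate 1 the highest, with the knockout arrays between them. The means were 7.34 ± 0.101 in knockout and 7.33 ± 0.501 in wild type cells (SD, n = 3 each), a log2 fold change of 0.013 (SE 0.247, the widest of the 9 genes, limma adjusted p = 1.0). Its sign followed single arrays: it was -0.27 without WT replicate 2, -0.044 without KO replicate 1, 0.21 without WT replicate 1, 0.10 without WT replicate 3, 0.030 without KO replicate 2 and 0.052 without KO replicate 3. It also turned to -0.063 with array weights and to -0.0091 with arrays centred on their medians.

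Sox9 encodes an HMG-box factor used with Snai2 to convert mouse mammary cells to a stem cell state, and is also active in luminal progenitors. It read 10.18, 10.18 and 10.16 on the knockout arrays, against 10.31, 10.41 and 10.29 on the wild type arrays. Every knockout array was below every wild type array, with a gap of 0.11 between the nearest arrays. The means were 10.17 ± 0.0071 in knockout and 10.33 ± 0.067 in wild type cells (SD, n = 3 each). The log2 fold change was -0.16 (SE 0.126), with a 95% interval of -0.45 to 0.12, so it did not pass (limma adjusted p = 1.0). limma's standard error draws on the spread of other genes at a like level, and is wider than the spread of these 6 values alone. The fold change lay between -0.19 and -0.13 when any 1 array was left out.

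Sox10 encodes the related HMG-box factor of neural crest and Schwann cells, found also in mammary stem and progenitor cells. Its levels were 8.28, 8.46 and 8.48 in the knockout and 8.29, 8.49 and 8.18 in the wild type. The groups overlapped, with WT replicate 3 the lowest and WT replicate 2 the highest of the 6 arrays. Its genotype difference was 0.086 (SE 0.165), with a 95% interval of -0.29 to 0.46 (limma adjusted p = 1.0). It lay between 0.016 without WT replicate 3 and 0.17 without WT replicate 2.

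Nfib encodes nuclear factor I/B, known in hair follicle stem cells of the mouse and in the developing lung. It read 11.71, 11.65 and 11.73 on the knockout arrays and 11.65, 11.56 and 11.54 on the wild type arrays. KO replicate 2 and WT replicate 1 were nearly level, and KO replicates 1 and 3 exceeded every wild type array. The log2 fold change was 0.11 (SE 0.103, the narrowest of the 9 genes), with a 95% interval of -0.12 to 0.34 (limma adjusted p = 1.0).

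Tbx3 encodes a T-box repressor required for mammary placodes in the mouse embryo, and mutated in human ulnar-mammary syndrome. It read 7.59, 8.20 and 7.46 on the knockout arrays, against 7.72, 8.25 and 7.84 on the wild type arrays. Replicate 2 was the highest array in both genotypes, and the groups overlapped. Its genotype difference was -0.19 (SE 0.239), with a 95% interval of -0.73 to 0.35 (limma adjusted p = 1.0). Leaving out KO replicate 2 gave -0.41 and leaving out WT replicate 1 gave -0.30, while the value was -0.11 without KO replicate 1, -0.040 without KO replicate 3 and -0.030 without WT replicate 2.

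Turning to signalling proteins, Inpp5d encodes SHIP1, a phosphatase that removes a phosphate from the PI3K product PIP3, best known in blood cells. A shorter product from an internal promoter has been used to mark mouse mammary stem cells, and which product the probes read is not given in the sources used here. It read 4.42, 3.98 and 3.998 on the knockout arrays, against 4.45, 4.41 and 4.29 on the wild type arrays. KO replicate 1 lay within the wild type range, and the other knockout arrays lay below it. Its signal was dim, with a mean of 4.26 over the 6 arrays, at percentile 19.6 of all genes. The other 8 of the 9 genes were above the median level. The log2 fold change was -0.25 (SE 0.149), with a 95% interval of -0.59 to 0.090 (limma adjusted p = 1.0). Without KO replicate 1 the value was -0.39, with an unadjusted limma p of 0.0254 but no call after adjustment. With array weights the value was -0.12. The lowest limma adjusted p of Inpp5d over all alternatives was 0.779.

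Gng11 encodes a gamma subunit of heterotrimeric G proteins, which carry signals from receptors together with a beta subunit. It read 8.52, 8.79 and 8.62 on the knockout arrays, against 8.08, 8.12 and 8.28 on the wild type arrays. All 3 knockout arrays were above all 3 wild type arrays, with a gap of 0.24 between the nearest arrays. The means were 8.64 ± 0.135 in knockout and 8.16 ± 0.107 in wild type cells (SD, n = 3 each). Its genotype difference was 0.48 (SE 0.162), with a 95% interval of 0.12 to 0.85 that corresponds to ratios of 1.08 to 1.80. By unadjusted p it was at rank 228 of 22180 genes. Its limma adjusted p was 1.0, or 0.915 with the replicate number as a block. The fold change lay between 0.41 and 0.54 when any 1 array was left out, and without KO replicate 2 its unadjusted limma p was 0.0529.

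**Figure D2:**
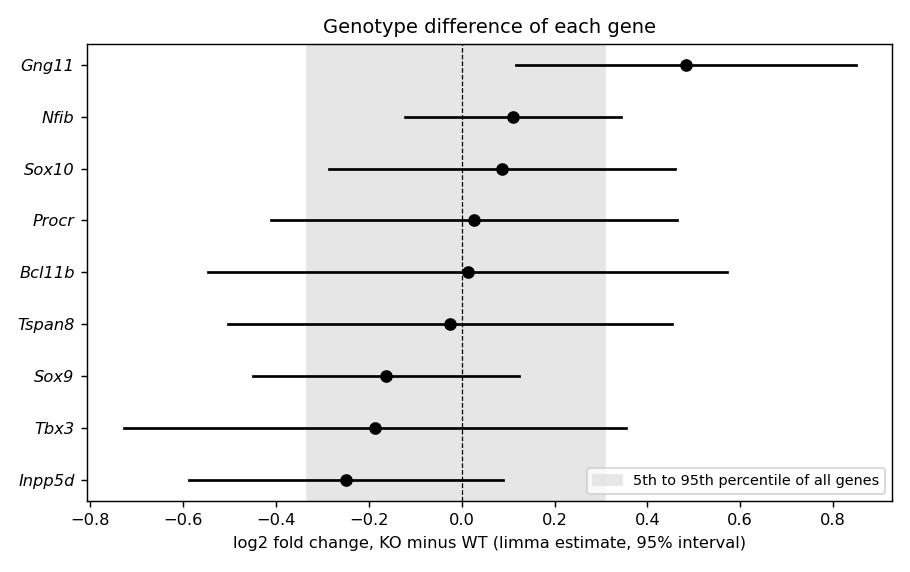
Log2 fold change of each gene, knockout minus wild type, on the x axis (point) with its 95% interval from limma (line, n = 3 arrays per genotype), and the 5th to 95th percentile of the fold changes of all genes shaded (-0.33 to 0.31). Of the 9 intervals 8 hold 0, and only that of Gng11 does not.

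Replicate numbers 1 to 3 recur in both genotypes, and no label says what a number shares. Compared by number, Gng11 differed by 0.44, 0.67 and 0.34 at replicates 1, 2 and 3. Sox9 differed by -0.13, -0.24 and -0.12, and Tbx3 by -0.12, -0.050 and -0.38. Both genes were thus lower in the knockout at every number. Of the 9 genes 5, Sox9, Nfib, Tbx3, Inpp5d and Gng11, had the same sign in each of the 3 pairs (55.6%), against 23.9% of all genes. For Gng11 and Sox9, whose groups did not overlap, the sign is the same however the arrays are paired. Their share in this count therefore repeats the lack of overlap, and no test was made of the count. Procr, at -0.39, 0.12 and 0.35, and Tspan8, at 0.097, -0.58 and 0.40, had differences of both signs.

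**Figure D3:**
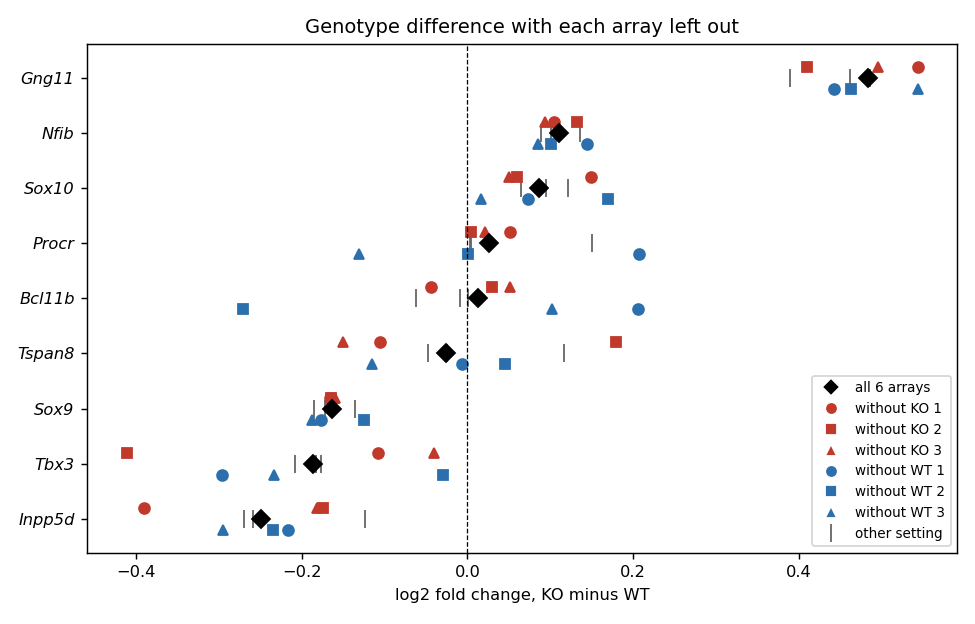
Log2 fold change, knockout minus wild type (x axis), with all 6 arrays (black diamonds), with each array left out (red for a knockout array, blue for a wild type array, symbol by replicate number) and under the other settings (grey ticks). Procr, Tspan8 and Bcl11b cross 0, Gng11 stays between 0.39 and 0.54, and the other 5 genes keep their sign.

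The 9 genes did not share a single profile over the 6 arrays. After each gene's own mean was subtracted, the root mean square difference between the profiles of 2 genes lay between 0.118 for Sox10 and Nfib, which are both nearly flat, and 0.521 for Bcl11b and Tbx3, over 36 pairs. The 3 genes of largest spread over the arrays were Bcl11b, Tbx3 and Gng11, with SDs of 0.323, 0.322 and 0.286 (n = 6 arrays). Over those arrays the named genes closest to Gng11 were Rsad2, Ptprb and Zfp980, at root mean square differences of 0.053, 0.053 and 0.055. Closest to Bcl11b were Zfp37, Stmn2 and Mir194-2, at 0.035, 0.047 and 0.048, and closest to Tbx3 were Mir215, Wdtc1 and Vps72, at 0.043, 0.059 and 0.060. With 6 arrays and 22180 genes, close profiles occur among many genes, and no test was made of them.

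The cells carried the signal of the basal layer, and also signal of luminal markers. Krt14, the basal keratin, averaged 13.25 ± 0.039 in knockout and 13.37 ± 0.122 in wild type cells (SD, n = 3 each). Its knockout arrays were all below its wild type arrays. The 11 measured of 12 basal markers had a list mean of 10.67 to 11.05 on knockout arrays and 10.77 to 10.99 on wild type arrays. Among them 2 had a higher and 9 a lower mean in the knockout, with a median log2 fold change of -0.051. Over all genes 48.3% had a higher mean. All 12 general luminal markers had a lower mean in the knockout (11 after quantile normalization), with a median log2 fold change of -0.44 and list means of 7.98 to 8.51 on knockout arrays and 8.01 to 9.12 on wild type arrays. The luminal keratins Krt8 and Krt18 had log2 differences of -0.33 and -0.61, and limma called 0 genes of either list. These were -0.60 and -0.96 without WT replicate 1 (limma adjusted p = 0.260 and 0.266), and -0.18 and -0.34 without WT replicate 2. In sorted bulk samples fewer cells of a type and less RNA per cell cannot be told apart.

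Sox9 and Tbx3 are also expressed in luminal cells. The general luminal mean was 8.36, 8.51 and 7.98 on the knockout arrays and 8.01, 9.12 and 8.91 on the wild type arrays. WT replicate 2 was the highest array both in this mean and in Sox9. WT replicate 1, within the knockout range in this mean, had a Sox9 level above every knockout array. The luminal progenitor mean was 7.97, 7.42 and 8.44 on the knockout arrays and 7.47, 7.84 and 7.62 on the wild type arrays. It averaged 7.94 in the knockout and 7.64 in the wild type, while Sox9 was lower in the knockout. Of those 10 markers 4 had a higher and 6 a lower mean. Hormone-sensing luminal markers were lower for all 10 measured of 12, with a median of -0.70 and list means of 7.09, 7.61 and 6.92 on the knockout arrays and 6.99, 8.47 and 8.04 on the wild type arrays. In that list, as in Tbx3, replicate 2 was the highest array in both genotypes. The same held for the general luminal mean and for the basal mean. The basal mean was 10.78, 11.05 and 10.67 on the knockout arrays and 10.77, 10.99 and 10.80 on the wild type arrays. The defining markers of the hormone-sensing list, the oestrogen and progesterone receptor genes Esr1 and Pgr, had log2 differences of -0.33 and -0.15. These turned to 0.012 and 0.19 without WT replicate 2. Tspan8 was lowest on KO replicate 2, the knockout array of highest general luminal mean, and was highest among wild type arrays on WT replicate 2, also the highest in that mean. The part of luminal signal in the values of Sox9, Tbx3 and Tspan8 was not tested.

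Inpp5d and Bcl11b are also genes of blood cells, which were depleted with beads before the sort. Of 12 leukocyte markers 11 had a higher mean in the knockout, against 48.3% of all genes, while Inpp5d had a lower mean. Their list means were 5.24 to 5.38 on knockout arrays and 5.10 to 5.31 on wild type arrays. The median level of these markers was at percentile 39.3 of all genes. Ptprc, the gene of CD45, was at 3.59 ± 0.208 in knockout and 3.36 ± 0.078 in wild type cells (SD, n = 3 each). At percentile 8.67 it was dimmer than Inpp5d. Cd52 had a log2 difference of 0.067. The T cell markers, 11 measured of 12, had list means of 4.89 to 5.10 on knockout arrays and 4.89 to 5.16 on wild type arrays. Cd3d and Cd3e, subunits of the T cell receptor complex, had log2 differences of 0.13 and -0.046. The T cell mean was 5.04, 4.89 and 5.10 on the knockout arrays and 5.16, 4.89 and 5.00 on the wild type arrays. WT replicate 1 was the highest of the 6 arrays in both the T cell mean and Bcl11b. The wild type arrays had the same order in both. Their medians over the whole table had this order too, at 5.39, 5.22 and 5.32 for WT replicates 1, 2 and 3. The knockout arrays did not, as KO replicate 3 had the highest knockout T cell mean but the lowest knockout Bcl11b level. The lowest T cell means, of KO replicate 2 and WT replicate 2, went with Bcl11b levels of 7.30 and 6.76. The part of blood cells in the values of Inpp5d and Bcl11b was not tested.

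Procr and Gng11 are known from endothelium as well. The 12 endothelial markers divided evenly, 6 with a higher and 6 with a lower mean in knockout cells (median 0.036), and their list means were 5.45 to 5.53 on knockout arrays and 5.35 to 5.57 on wild type arrays. By array that mean was 5.53, 5.50 and 5.45 in the knockout and 5.57, 5.40 and 5.35 in the wild type. WT replicate 1 was highest and WT replicate 3 lowest of the 6 arrays both in this mean and in Procr. Among knockout arrays, KO replicate 1 was highest in this mean but lowest in Procr. WT replicate 1 also had the highest median over the whole table (5.39), and was the lowest array of Gng11. Pecam1 and Cdh5, adhesion proteins of endothelial junctions, had log2 differences of 0.37 and 0.27 (SE 0.184 and 0.197), which ran from 0.23 to 0.54 and from 0.11 to 0.41 with 1 array left out. The mean of the fibroblast markers, like Gng11, was higher on every knockout array than on any wild type array, at 6.63 to 6.70 on knockout arrays and 6.19 to 6.48 on wild type arrays. Of them 9 of 12 had a higher mean in the knockout, against 48.3% of all genes. Log2 fold changes of the 12 ran from -0.28 to 1.28. At an unadjusted limma p under 0.05, 4 were higher and 0 lower, against 1.61% and 1.71% of all genes, and 0 were called. Arrays did not overlap for 2 of the 12, both with the knockout above, against 3.63% of all genes. Pdgfra and Col1a1 were not among these 2. Pdgfra, a receptor of platelet-derived growth factor, had a log2 difference of 0.85 and the collagen gene Col1a1 of 0.13, with Pdgfra at 0.48 without KO replicate 1. The part of such cells in the Procr and Gng11 values was not tested. Luminal progenitor markers were 4 higher and 6 lower of 10, with the transcription factor Elf5 at 0.089 and the casein gene Csn3 at 0.84 (0.53 to 1.13 with 1 array left out). Schwann cell and melanocyte markers, which bear on Sox10, were 5 higher and 5 lower of 10 measured, with list means of 5.87 to 5.90 on knockout arrays and 5.87 to 5.97 on wild type arrays.

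**Figure D4:**
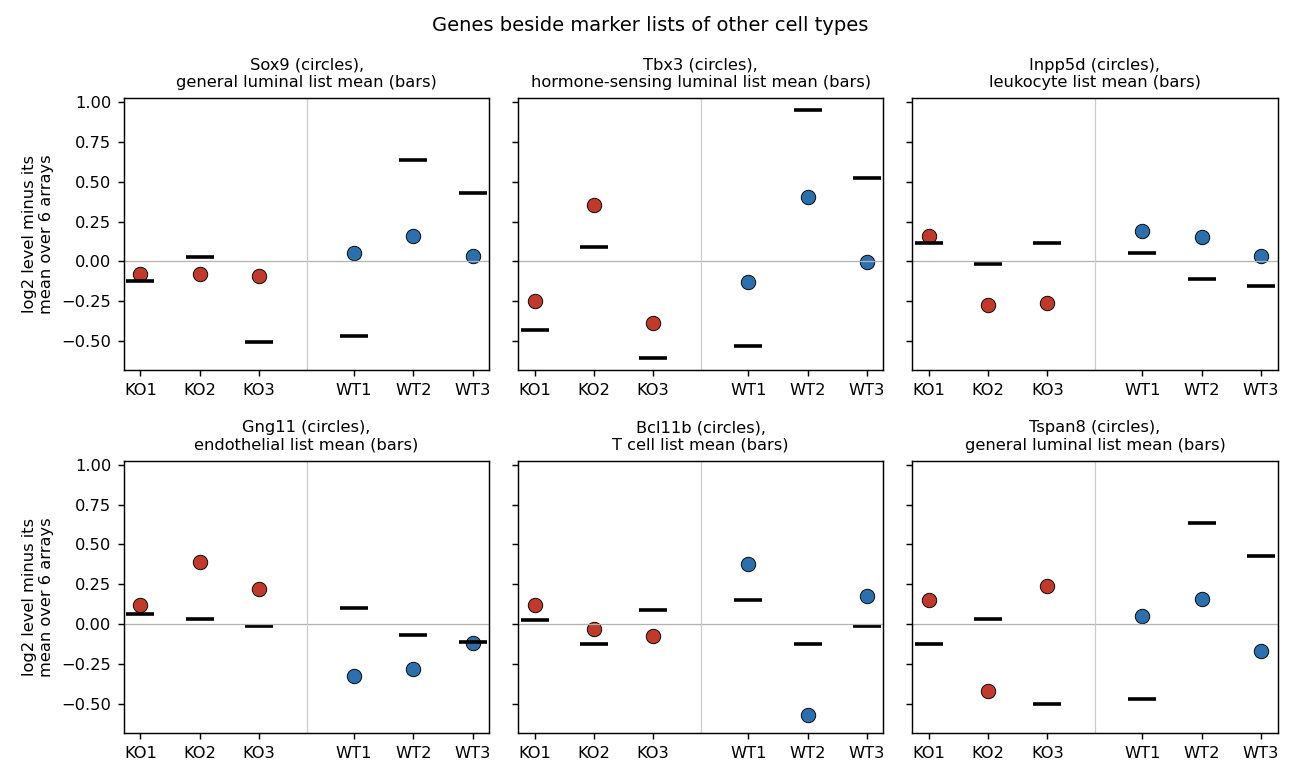
Log2 level of a gene (circles) and mean level of a marker list (bars) on each array (x axis, knockout KO1 to KO3 left of wild type WT1 to WT3), each less its own mean over the 6 arrays (y axis). Replicate 2 is the highest array of each genotype for Tbx3 and for the hormone-sensing list, and WT2 is the highest array for Sox9 and for the general luminal list.

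Relatives of the 9 genes were listed by family and pathway. Of 17 SOX genes beside Sox9 and Sox10, 11 had a higher and 6 a lower mean in the knockout, and limma called 0. Sox8, the closest relative of both, read 7.22, 7.74 and 6.20 on the knockout arrays and 6.32, 6.42 and 5.81 on the wild type arrays, a log2 fold change of 0.87 (SE 0.357, limma adjusted p = 1.0). KO replicate 3 lay among the wild type arrays. Its difference was 1.30 without that array and 0.53 without KO replicate 2. Sox11, the next by p, had 0.16. The 7 relatives of Nfib, Tbx3 and Bcl11b divided into 3 higher and 4 lower, all between -0.10 and 0.14, with Bcl11a at 0.14 and Tbx4 at -0.10.

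Tetraspanin genes other than Tspan8 had 9 of 27 measured members with a higher and 18 with a lower mean, from -1.38 to 0.46, and 0 called. Tspan14, which helps the protease ADAM10 reach the surface, read 8.16, 8.43 and 8.13 on the knockout arrays, against 8.79, 8.82 and 8.78 on the wild type arrays. All knockout arrays were below all wild type arrays, with a log2 fold change of -0.55 (SE 0.159, limma adjusted p = 1.0). Upk1b, a uroplakin, had a difference of 0.46 (SE 0.163, limma adjusted p = 1.0). Among 11 measured genes of the protein C pathway of Procr, 8 had a higher and 3 a lower mean, and 0 were called. Tfpi, an inhibitor of tissue factor, had a log2 difference of 0.41 and Proc, which encodes protein C, of -0.37. That of Proc was -0.036 without WT replicate 2 and -0.74 without WT replicate 1.

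The G protein beta and gamma genes beside Gng11 lay closer to 0 than Gng11 did. Of 14 measured, 10 had a higher and 4 a lower mean, between -0.20 and 0.33, and 0 were called. Gng8 had a log2 difference of 0.33 (SE 0.177; 0.15 without KO replicate 2), and Gnb4 of 0.21 (SE 0.127). Phosphoinositide phosphatases and PI3K subunits, the pathway of Inpp5d, had 7 higher and 11 lower of 18 measured, with the regulatory subunit Pik3r3 at 0.55 (0.26 to 0.87 with 1 array left out) and the catalytic subunit Pik3cb at 0.24 (0.16 to 0.39).

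Other genes associated with mammary stem cells had 15 of 24 measured members with a higher and 9 with a lower mean in the knockout. Their median log2 fold change was 0.022, against 0.013 for the 9 genes, and limma called 0. Met, the receptor of hepatocyte growth factor, read 7.61, 7.24 and 8.28 on the knockout arrays, against 8.41, 8.21 and 8.30 on the wild type arrays. KO replicate 3 lay among the wild type arrays, and the log2 fold change was -0.59 (SE 0.255, limma adjusted p = 1.0), or -0.88 without that array and -0.36 without KO replicate 2. Mycn, a MYC family factor, read 4.91, 5.26 and 5.02 on the knockout arrays and 4.85, 4.87 and 4.57 on the wild type arrays, with a log2 fold change of 0.30 (limma adjusted p = 1.0). Its knockout arrays were all above its wild type arrays.

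**Figure D5:**
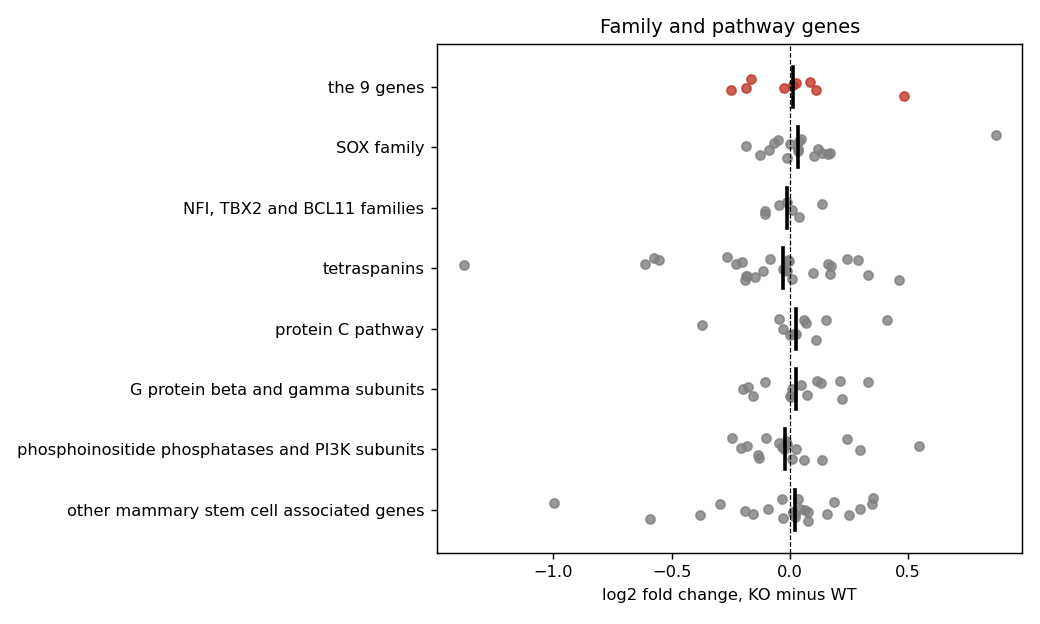
Log2 fold change, knockout minus wild type (x axis), of the 9 genes (red) and of the genes in 7 family or pathway lists (grey), 1 point per gene, with the median of each list as a black line. The medians of all lists lie between -0.030 and 0.037, and Gng11 at 0.48 is the rightmost of the 9 genes.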

How the data were processed

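The deposited table held log2 expression values for 41345 probe sets on 6 arrays. Per the submitters' processing notes, the authors made these log2 values by RMA (background correction, normalization between arrays, summary over probes) and used Transcriptome Analysis Console 4.0. Medians over the table lay between 5.22 and 5.39 per array, and no arrays were identical. The platform annotation gave 1 gene symbol for 23521 rows, several for 1814 and none for 16010. Rows with 1 symbol were used, and the row of highest mean was kept per gene, leaving 22180 genes. Each of the 9 genes had 1 row. Knockout minus wild type was fitted with limma 3.58.1 in R 4.3.3 (lmFit, eBayes with a mean trend), two-sided, adjusted over all genes, with moderated standard errors and 95% intervals that are not adjusted. The fit was tested on simulated data. Scan dates were not used here.

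The 9 genes and all lists were chosen with earlier results of these data known. Of 243 list entries 227 were measured. Apart from the 9 genes, the genes named are the 2 of smallest p in each family or pathway list, the first 2 entries of each marker list where measured, and the 3 closest profiles of the 3 most variable genes, leaving out predicted genes. As a check of pairing, deviations from group means were correlated across genes for arrays of 1 number, and r was 0.121, 0.25 and 0.127. Arrays of different numbers had r of -0.228 to 0.13, the highest for KO replicate 3 and WT replicate 1, above 2 of those values. No label says what a number shares, so these values leave the pairing uncertain. Alternatives tried other priors, array weights, another normalization or centring, a filter on dim genes, other rows, the replicate block and each array left out. Figures were drawn with matplotlib 3.10.9.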

Additional observations from a re-analysis of the deposited data

How the results depend on the processing

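Over 15 alternatives, 6 of which leave out 1 array each, limma called 0 of the 9 genes, 0 genes of the other lists and 0 of all genes. Of 134 values of the 9 genes 8 changed sign, in Procr, Tspan8 and Bcl11b, and the lowest adjusted p was 0.530. The filter on dim genes removed Inpp5d. With arrays left out in turn, Procr lay between -0.13 and 0.21, Tspan8 between -0.15 and 0.18, and Bcl11b between -0.27 and 0.21. Array weights gave 0.12 for Tspan8 and -0.063 for Bcl11b, and centring on array medians gave -0.0091 for Bcl11b. The median of the 9 genes was 0.12 with array weights, -0.0091 after centring and -0.12 to 0.073 with arrays left out. The number of all genes at an unadjusted p under 0.05 was 1970 with array weights, 319 among genes above the median level (11090 genes tested), 1444 over all rows (41345 tested), 1112 with the replicate block, and 554 to 1788 with arrays left out. The replicate block changed no call. Under another scaling the median fold change also turned sign for the T cell markers (0.0022, against -0.025 after quantile normalization and -0.019 after centring) and the Schwann cell and melanocyte markers (0.0077, against -0.0068 and -0.014), and for no other list but the 9 genes. Of the 29 other named genes with a fold change 6 changed sign with an array left out: Tbx4 (-0.23 to 0.013), Elf5 (-0.13 to 0.20), Esr1 (-0.76 to 0.012), Pgr (-0.66 to 0.19), Cd3e (-0.11 to 0.076) and Cd52 (-0.022 to 0.16). The cause of these changes was not tested. The 95% intervals show what 3 arrays per genotype leave undecided, and signal over background could not be read from the table.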
